A study of Rattus norvegicus with 72 samples.

Results

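The genes described here encode 10 components of bone morphogenetic protein (BMP) and activin signalling, namely the activin subunit genes Inhba and Inhbb, the secreted inhibitor gene Nog, the receptor gene Bmpr2, the signal transducer genes Smad1, Smad9 and Smad7, and the target genes Id1, Id2 and Id3. They are a list of pathway genes drawn up with earlier results of these arrays known, and each was read from the probe set that carried its symbol alone and had the highest mean over all 72 arrays. All 10 were found among 14217 named genes, and all 10 passed the filter on dim probe sets that left 12276 genes for testing. RNA came from the dorsal root ganglia L4 and L5, where the sensory neurons of the sciatic nerve have their cell bodies, of Wistar rats aged 8 to 12 weeks. The nerve was crushed at a proximal site (22 arrays) or a distal site (29 arrays), or the rats had sham surgery (21 arrays), and ganglia were taken 1, 3, 8, 12, 16, 18, 24 or 28 h later. The labels name no drug and no altered gene, and they do not say whether arrays of a group came from separate rats, so the p-values measure the spread between arrays, which may be technical. Values are log2 intensities of probe sets. An intensity depends on the probe as well as on the transcript, so levels were compared between arrays and never between genes.

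BMPs and activins are secreted dimers of the transforming growth factor beta family that bind pairs of serine/threonine kinase receptors. BMP receptors phosphorylate Smad1, Smad5 and Smad9, activin receptors phosphorylate Smad2 and Smad3, and both groups enter the nucleus with Smad4 to regulate genes such as the Id genes. Noggin, the product of Nog, binds BMPs outside the cell and keeps them from their receptors, and Smad7 inhibits signalling inside the cell. In mice Smad1 is known to be needed for axon growth from sensory neurons, and in rats activin is known to act on sensory neurons after skin injury.

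The 120 bases upstream of the annotated start are shown for Smad1, Smad9, Nog and Inhbb, because these 4 genes differed between proximal and sham ganglia at late hours. The sequences are from RefSeq on build GRCr8, written 5′ to 3′ on the strand of the gene, with GGCGCC, a GC-rich sequence that BMP-activated Smads can bind, in capitals.
Smad1, chr19:45417422-45417541, plus strand: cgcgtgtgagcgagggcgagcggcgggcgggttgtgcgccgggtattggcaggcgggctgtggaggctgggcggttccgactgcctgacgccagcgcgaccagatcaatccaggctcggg
Smad9, chr2:141106548-141106667, plus strand: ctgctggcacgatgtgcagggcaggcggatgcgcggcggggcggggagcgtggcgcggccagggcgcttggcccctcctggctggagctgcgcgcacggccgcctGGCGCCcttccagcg
Nog, chr10:74627502-74627621, minus strand: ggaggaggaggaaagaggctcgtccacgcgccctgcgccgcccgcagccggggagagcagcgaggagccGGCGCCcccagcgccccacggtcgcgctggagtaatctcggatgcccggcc
Inhbb, chr13:33089374-33089493, minus strand: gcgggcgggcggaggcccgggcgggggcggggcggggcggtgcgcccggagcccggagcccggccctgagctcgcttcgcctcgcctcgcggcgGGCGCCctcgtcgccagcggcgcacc
Over the whole window of 250 bases before to 50 bases after the start, GGCGCC lay in 4 of the 10 promoters (Smad9, Nog, Inhbb and Smad7) and in 11% of 33469 RefSeq promoters of the same length. GTCTAGAC, a palindromic Smad sequence, lay in 0.197% of all promoters, the AP-1 sequence TGANTCA in 7.33% and the cyclic AMP response element TGACGTCA in 1.83%, and none of the 3 was in a promoter of the 10 genes. Each of the 4 motifs reads the same on both strands, and none of them contains another. The windows of these genes were rich in G and C, at 67.7% for Smad1, 71% for Smad9, 73% for Nog and 84.3% for Inhbb, against a median of 51.7% over all promoters, and the share of promoters with a motif was not matched for this.

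The arrays fell into 4 technical sets that the labels do not name, found by clustering on those probe sets that failed the filter. All 27 arrays of set A were distal, out of 29 distal arrays. Set C held 9 proximal and 9 sham arrays at 1, 24 and 28 h, set D 9 proximal and 8 sham arrays mostly at 3 and 8 h, and set B 4 of each. The 2 distal arrays outside set A were the one lettered do at 1 h, in set B, and the one lettered do at 18 h, in set D. The distal array lettered do at 8 h lay in set A. Lesion and set were therefore balanced between proximal and sham ganglia at most hours (not at 16 h), whereas distal lesion and set cannot be told apart. Array medians lay between 6.88 and 7.08 log2, and markers of the ganglion were bright in all groups, with summed levels of 12 sensory neuron genes such as Prph and Nefh between 16.34 and 16.78 log2 and of 7 Schwann cell genes between 15.13 and 15.63 log2. Summed levels of 6 skeletal muscle genes ranged from 8.63 to 13.95 log2 between arrays.

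The first question was how these genes differed between proximal lesion and sham surgery once the response was under way, at 18, 24 and 28 h (9 arrays each). Smad1 was higher after the lesion, while Smad9, Inhbb and Nog were lower, each by a factor between 1.74 and 2.11. The other 6 genes were not called, with differences between -0.32 and 0.13 log2. A gene was called at an adjusted p under 0.05, from a model fitted with limma to all genes and arrays, with Benjamini-Hochberg adjustment. By that rule 9.71% of all tested genes were called (5.35% higher and 4.36% lower), against 4 of these 10.

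**Figure D1:**
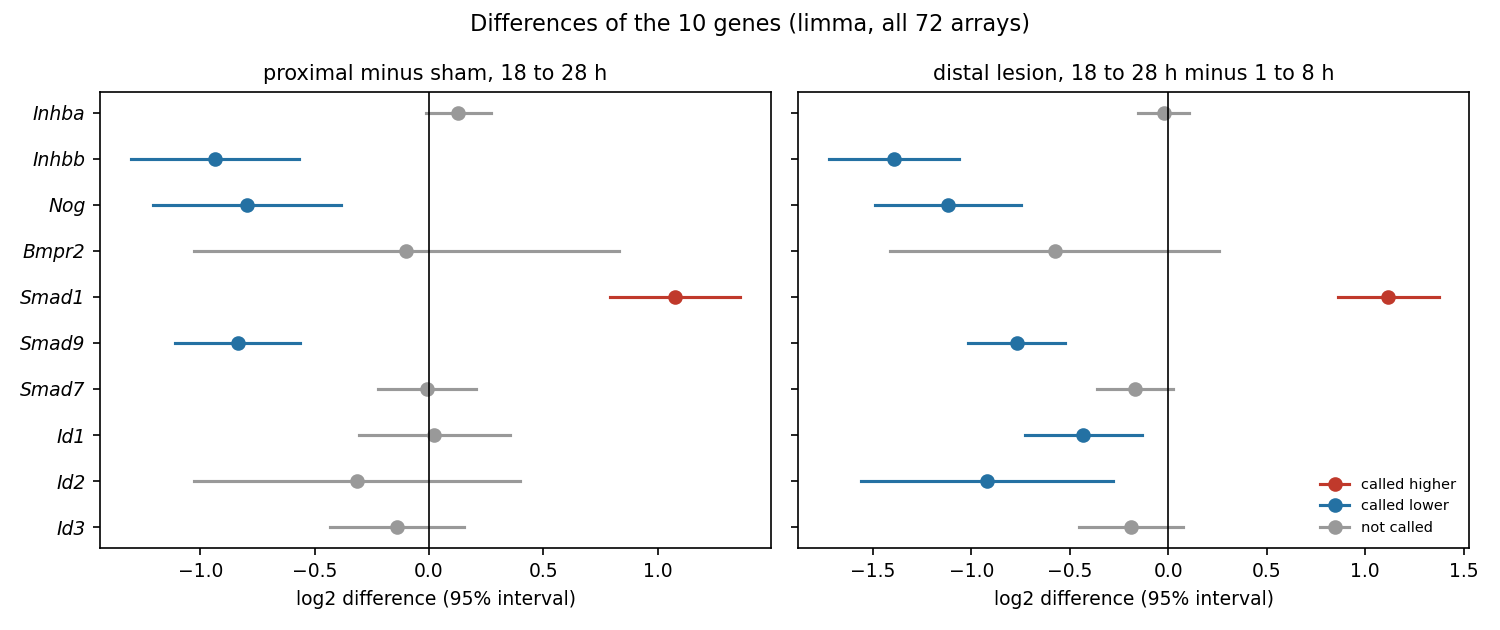
Log2 differences of the 10 genes, proximal minus sham at 18 to 28 h (left) and distal arrays at 18 to 28 h minus distal arrays at 1 to 8 h (right). Points are the differences and bars their 95% intervals; red is called higher, blue called lower and grey not called. Smad1 lies right of 0 and Smad9, Inhbb and Nog lie left of 0 in both plots.

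Among the ligand genes, Inhbb, which encodes the activin beta B subunit, was lower in late proximal than in late sham ganglia. Its 9 late proximal arrays had a lowest, median and highest value of 6.85, 7.27 and 7.85 log2, against 7.91, 8.20 and 8.65 log2 in the 9 late sham arrays, so the groups did not overlap. Over all tested genes 1.42% had late proximal and sham arrays that did not overlap. The difference was -0.94 log2 (SE 0.18, a 1.91-fold lower intensity, limma adjusted p = 0.000190). Inhba, which encodes the beta A subunit, was dim, with values between 5.88 and 6.63 log2 on all arrays and a filter level of 5.46 log2. Its late means were 6.27 ± 0.20 log2 in proximal ganglia and 6.14 ± 0.09 log2 in sham ganglia (SD, n = 9 each). That difference of 0.13 log2, with a 95% interval from -0.02 to 0.27, was not called (adjusted p = 0.321). A second Inhba probe set, close to the filter level with a mean of 5.52 log2, gave a larger difference of 0.38 log2 (SE 0.19). That difference was not called either.

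Nog, the secreted BMP inhibitor, was also lower in late proximal than in late sham ganglia. The late values had a lowest, median and highest of 5.81, 7.39 and 8.24 log2 in proximal arrays, against 7.67, 8.16 and 8.35 log2 in sham arrays. The groups overlapped, because 2 proximal arrays at 18 h, with 8.06 and 8.24 log2, lay among the sham arrays, while the third proximal array at 18 h had the lowest value of all. The difference was -0.80 log2 (SE 0.20, 1.74-fold lower, adjusted p = 0.00561). Of the 4 calls this was the least stable: a fit to the 18 late proximal and sham arrays alone did not make it (adjusted p = 0.0580), nor did the fit without the 28 h arrays (adjusted p = 0.0887). Within technical sets the difference was -0.82 log2 in set C (24 and 28 h, 6 arrays each), -0.13 log2 in set B (18 h, 2 arrays each) and -1.99 log2 in set D (18 h, 1 array each).

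Bmpr2 encodes the type II receptor for BMPs. The lowest, median and highest late values were 6.15, 6.67 and 8.58 log2 in proximal arrays and 6.13, 6.64 and 9.81 log2 in sham arrays, and the difference in means of -0.10 log2 had a wide 95% interval, from -1.03 to 0.83. The level also differed widely among sham arrays, with a mean of 6.47 log2 at 24 and 28 h and 9.44 log2 at 3 and 8 h. It did so within 1 hour and 1 technical set as well: at 1 h, in set C, the arrays lettered a, b and c had 6.54, 9.94 and 9.57 log2 in proximal ganglia, against 6.90, 9.69 and 9.42 log2 in sham ganglia. A second probe set of Bmpr2 lay close to the filter level and gave -0.06 log2.

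Smad1, a transducer of BMP signals, was higher in every late proximal array than in any late sham array. Its lowest, median and highest late values were 10.49, 10.92 and 11.09 log2 in proximal ganglia, against 9.61, 9.78 and 10.08 log2 in sham ganglia. The difference was 1.08 log2 (SE 0.14, 2.11-fold, adjusted p = 6.87e-08). A second, dimmer Smad1 probe set gave 1.18 log2. The difference was 1.14 log2 in technical set C, 1.01 log2 in set B and 0.85 log2 in set D.

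Smad9 encodes the BMP transducer also called Smad8, and it differed from sham in the opposite direction to Smad1. Its late values had a lowest, median and highest of 8.69, 9.14 and 9.97 log2 in proximal arrays, against 9.76, 9.98 and 10.46 log2 in sham arrays. The groups overlapped, through 2 proximal arrays at 18 h with 9.91 and 9.97 log2. The difference was -0.84 log2 (SE 0.14, 1.79-fold lower, adjusted p = 8.05e-06), and it was -0.96 log2 in set C, -0.50 log2 in set B and -0.79 log2 in set D. A second Smad9 probe set, below the filter level with a mean of 5.27 log2, gave -0.24 log2 and was not called (adjusted p = 0.457 over all probe sets).

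Smad7, which blocks receptor signalling and is itself induced by it, was dim, with values between 5.08 and 6.52 log2 on all arrays. Its late means were 5.90 ± 0.17 log2 in proximal ganglia and 5.91 ± 0.12 log2 in sham ganglia (SD, n = 9 each). The difference was -0.01 log2 with a 95% interval from -0.22 to 0.21, and 2 further Smad7 probe sets lay below the filter level.

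The Id genes encode helix-loop-helix proteins without a DNA-binding region and are widely used as readouts of BMP signalling. At late hours Id1 differed by 0.02 log2 (95% interval -0.31 to 0.35), Id3 by -0.14 log2 (-0.43 to 0.15) and Id2 by -0.32 log2 (-1.03 to 0.40), and none was called. The brightest Id2 probe set varied much as that of Bmpr2 did, with means of 6.72 log2 in sham arrays at 24 and 28 h and 9.96 log2 in sham arrays at 3 and 8 h. At 1 h its arrays lettered a, b and c had 7.05, 9.73 and 9.90 log2 in proximal ganglia and 7.09, 10.31 and 10.03 log2 in sham ganglia, so array a was low in both. The other Id2 probe set ran the other way, with 8.51 log2 at 24 and 28 h and 7.79 log2 at 3 and 8 h, and gave a late difference of -0.31 log2 that was not called either (adjusted p = 0.264).

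The next question was when the differences began. None of the 10 genes was called in the early window of 1, 3 and 8 h (0.13% of all genes were called) or in the middle window of 12 and 16 h (0.114%). Hour by hour, none was called at 1 or 3 h (0% of all genes each), 8 h (1.75%), 12 h (0.0326%) or 16 h (0.0489%). Their early differences, proximal minus sham, lay between -0.40 and 0.31 log2. In the middle window Smad9 stood at -0.76 log2 (adjusted p = 0.159), but the arrays there are few and at 16 h a single sham array was set against 2 proximal arrays of different technical sets. With the technical set as a fixed block the Smad9 difference was -0.51 log2 and was called (adjusted p = 0.0149, with 1.1% of all genes called).

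Smad1 was called at each of the 3 late hours. At 18 h its proximal arrays had 10.49, 11.06 and 11.09 log2, against 9.64, 10.04 and 10.08 log2 in sham arrays (0.96 log2, adjusted p = 0.0258, with 1.51% of all genes called). At 24 h the values were 10.70, 10.90 and 11.08 log2 after the lesion and 9.61, 9.76 and 9.80 log2 after sham surgery (1.17 log2, adjusted p = 0.00280, 1.21% called). At 28 h the means were 10.88 ± 0.15 log2 after the lesion and 9.78 ± 0.13 log2 after sham surgery (SD, n = 3 each; 1.10 log2, adjusted p = 0.00240, 4.47% called). At each of these hours every proximal array lay above every sham array.

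Without a block, Smad9 and Inhbb were called by hour only at 28 h. Smad9 had 8.69, 8.73 and 8.85 log2 in proximal arrays and 9.89, 9.97 and 9.98 log2 in sham arrays at 28 h (-1.19 log2, adjusted p = 0.000502). Inhbb had 6.98, 6.99 and 7.32 log2 in proximal arrays and 8.12, 8.14 and 8.20 log2 in sham arrays at 28 h (-1.06 log2, adjusted p = 0.0402). At 18 h, arrays of the same letter deviated together, and a replicate block by letter called Smad9 (-0.60 log2, adjusted p = 0.0110) and Inhbb (-0.89 log2, adjusted p = 0.00257) there as well as Smad1, with 6.88% of all genes called. The arrays lettered a and b lay in set B at 18 h and those lettered c in set D, so letter and set are partly the same there. Nog was not called at any single hour without a block, with differences of -0.75, -0.72 and -0.92 log2 at 18, 24 and 28 h.

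With the technical set as a fixed block, more of the hourly differences were called. Smad9 was then called at 18 h (adjusted p = 0.000436) and 24 h (1.39e-05) as well as at 28 h, and so was Inhbb (0.00279 at 18 h and 0.00384 at 24 h). Nog was called at 18 h (0.0477) and 28 h (0.00709) but not at 24 h (0.0865). Of all genes, 6.35% were called at 18 h, 3.34% at 24 h and 8.95% at 28 h in that fit. The differences themselves were the same as without the block.

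**Figure D2:**
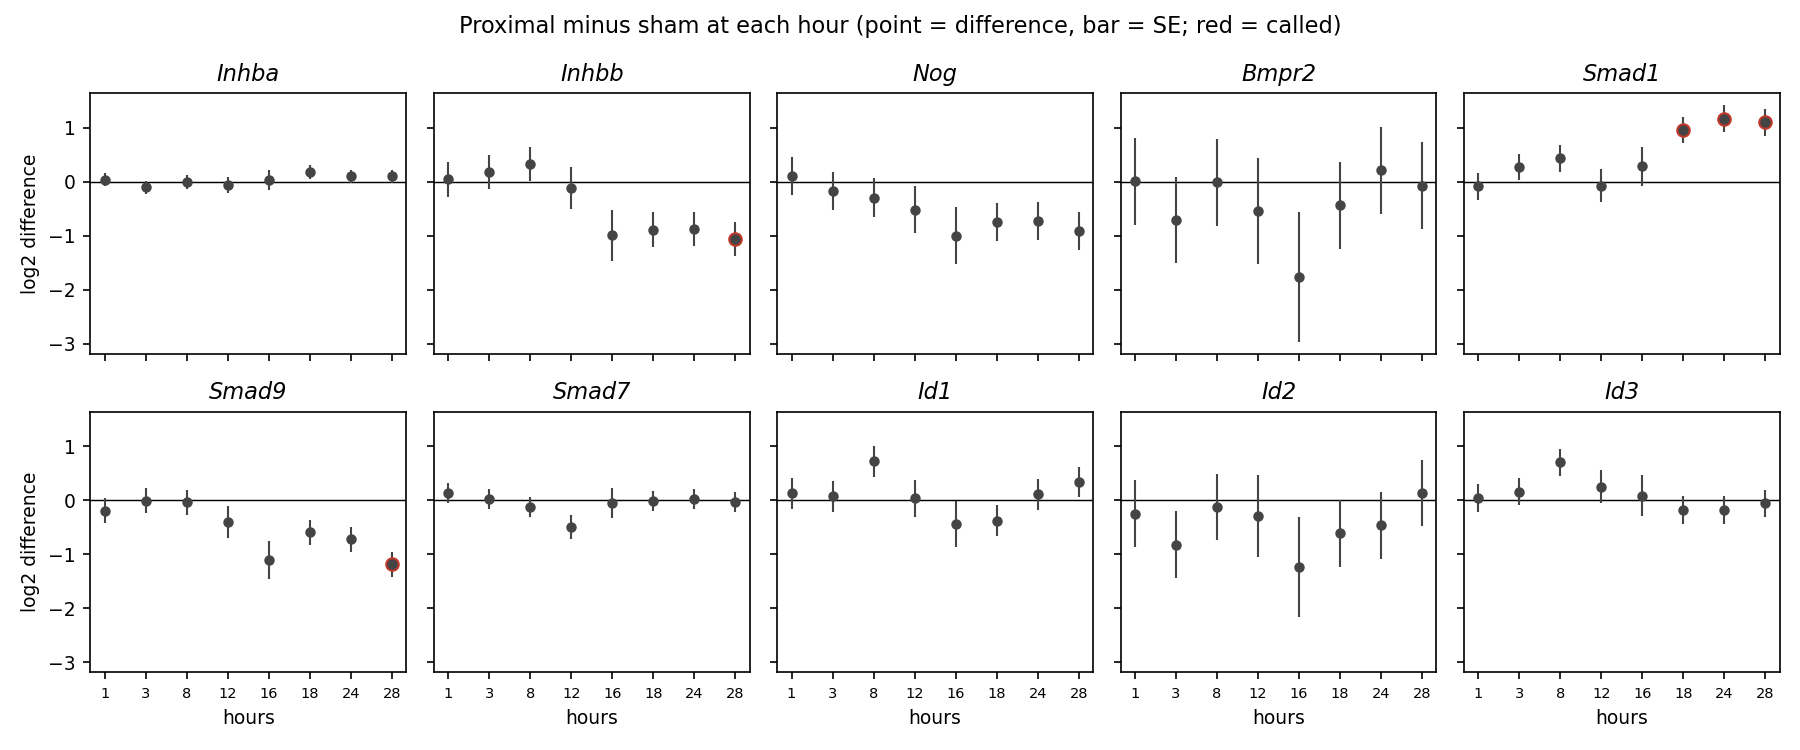
Proximal minus sham difference of each gene at each hour, in log2 units, with bars for the standard error of the fitted difference; red marks called differences. Smad1 is called at 18, 24 and 28 h, and Smad9 and Inhbb at 28 h.

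Testing the change of the lesion difference itself, late window against early window, called 3 of the 10 genes, with 8.67% of all genes called. For Smad1 the difference was 1.08 log2 late and 0.21 log2 early, a change of 0.87 log2 (SE 0.20, adjusted p = 0.00299). For Inhbb it was -0.94 log2 late and 0.19 log2 early, a change of -1.12 log2 (SE 0.26, adjusted p = 0.00290). For Smad9 it was -0.84 log2 late and -0.08 log2 early, a change of -0.76 log2 (SE 0.19, adjusted p = 0.00749). The change for Nog, -0.68 log2, was not called (adjusted p = 0.138).

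Levels in sham ganglia also moved between hours, so the lesion differences rest on the sham array of the same hour. Mean sham Smad1 was 9.62 log2 at 1 h, 9.09 at 3 h, 8.92 at 8 h, 9.92 at 18 h, 9.72 at 24 h and 9.78 at 28 h. Sham arrays at 3 and 8 h lay in set D and those at 1, 24 and 28 h in set C, so hour and set moved together. A moderated F test over the 8 hours of the sham arrays called Smad1, Nog, Inhbb, Id2 and Bmpr2, with 53.6% of all genes called.

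Within set C alone, hours could be compared without a change of set, in a contrast added after the sets were seen. The mean of 24 and 28 h exceeded 1 h by 1.35 log2 for Smad1 in proximal ganglia and by 0.13 log2 in sham ganglia. The change for Inhbb was -1.30 log2 in proximal ganglia and -0.29 log2 in sham ganglia, for Nog -0.93 log2 in proximal and -0.0010 log2 in sham ganglia, and for Smad9 -0.86 log2 in proximal and -0.10 log2 in sham ganglia. All 4 proximal changes were called (20.3% of all genes) and none of the 4 sham changes was (1.88% of all genes). Of the differences between these changes only that for Smad1, 1.22 log2, was called (adjusted p = 0.0202, 1.21% of all genes), and those for Smad9 (adjusted p = 0.280), Inhbb (0.302) and Nog (0.470) were not. The 4 genes were chosen by late differences that include these same 24 and 28 h arrays, so these values are a description only. Id2 changed by -2.34 log2 in proximal ganglia and by -2.42 log2 in sham ganglia, and both changes were called (adjusted p = 0.00112 and 0.00756). The Bmpr2 change was called in proximal ganglia (-2.15 log2, adjusted p = 0.0219). In sham ganglia it was of like size but not called (-2.21 log2, adjusted p = 0.0912).

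At 8 h Id1 and Id3 had the largest proximal minus sham differences of the 10 genes. Id3 had 10.97, 11.21 and 11.22 log2 in proximal arrays at 8 h, against 10.19, 10.42 and 10.68 log2 in sham arrays. Id1 had 9.36, 9.62 and 9.67 log2 in proximal arrays, against 8.67, 8.90 and 8.92 log2 in sham arrays. In both genes the 3 proximal arrays lay above the 3 sham arrays, as did those of Smad1 and Inhbb, but 24.4% of all genes had arrays that did not overlap at that hour. The differences, 0.71 log2 for Id3 and 0.72 log2 for Id1, were not called (adjusted p = 0.152 and 0.206). With the technical set as a fixed block they were (adjusted p = 0.0186 for Id3 and 0.0133 for Id1), when 7.67% of all genes were called.

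**Figure D3:**
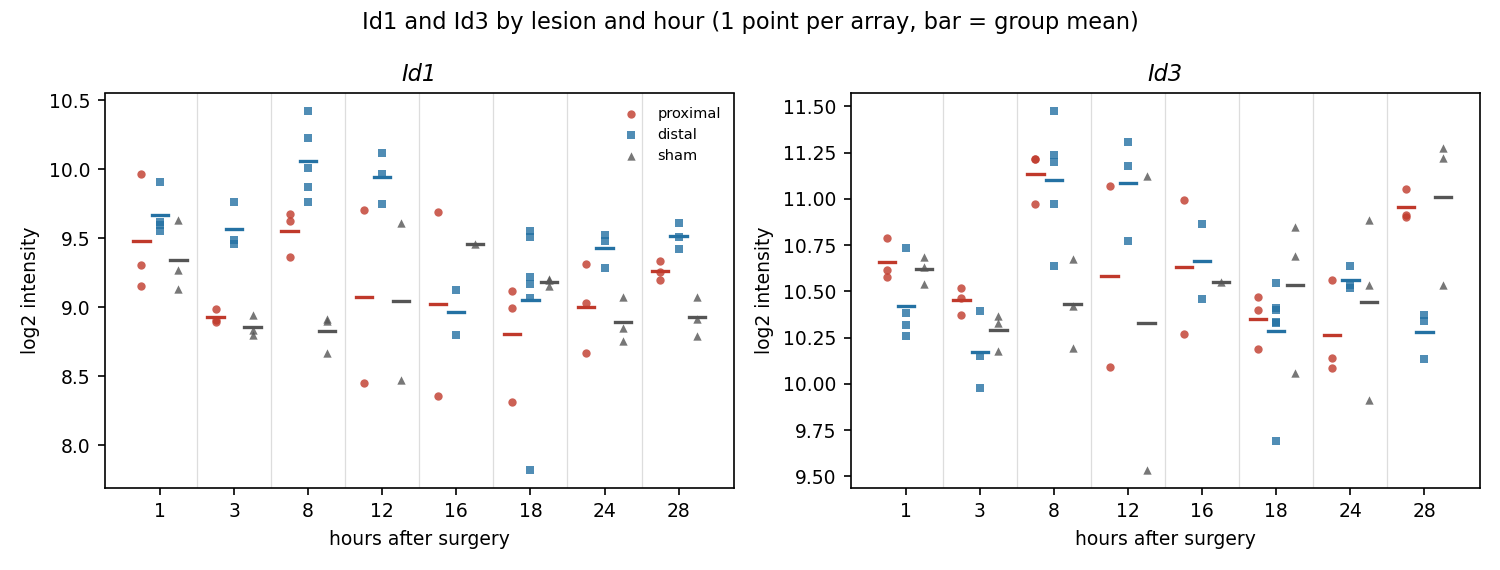
Id1 (left) and Id3 (right) log2 intensity by hour after surgery, 1 point per array for proximal, distal and sham ganglia, with bars for group means. At 8 h the proximal arrays lie above the sham arrays, and the distal arrays of Id3 lie above those at 1 and 3 h on average.

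Distal arrays gave a time course of their own, nearly all within set A. Mean distal Smad1 was 9.67 log2 at 1 h, 9.75 at 3 h, 9.67 at 8 h, 10.01 at 12 h, 10.52 at 16 h, 10.45 at 18 h, 10.95 at 24 h and 11.05 at 28 h. Mean distal Inhbb was 8.36, 8.41, 8.60, 8.36, 7.63, 7.44, 6.96 and 6.79 log2 at the same hours. Smad9 stayed between 10.23 and 10.37 log2 up to 12 h and was 9.88, 9.75, 9.55 and 9.45 log2 at 16, 18, 24 and 28 h. Distal Nog went the same way as Inhbb, with 8.15 log2 at 1 h, 7.81 at 8 h, 7.34 at 18 h and 6.57 at 28 h. A moderated F test over the 8 distal hours called these 4 genes, Id1 and Id3, with 16.7% of all genes called.

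Between the late and the early distal hours (12 arrays each), 6 of the 10 genes were called, with 25.3% of all genes called (15.4% higher, 9.87% lower). Smad1 rose by 1.12 log2 (SE 0.13, adjusted p = 6.75e-10), and by 0.59 log2 on its dimmer probe set (SE 0.19, adjusted p = 0.0172 over all probe sets). Inhbb fell by 1.39 log2 (SE 0.16, adjusted p = 1.79e-09), Nog by 1.12 log2 (SE 0.18, adjusted p = 3.74e-06) and Smad9 by 0.77 log2 (SE 0.12, adjusted p = 2.05e-06). No gene of the 10 had late and early distal arrays that did not overlap (0.701% of all genes did). For Smad1 the lowest, median and highest values were 9.78, 10.82 and 11.22 log2 late, against 9.24, 9.70 and 10.01 log2 early. For Inhbb they were 6.52, 7.02 and 8.02 log2 late, against 7.85, 8.51 and 8.87 log2 early.

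Id1 and Id2 were called lower as well, by 0.43 log2 (adjusted p = 0.0247) and 0.92 log2 (adjusted p = 0.0268), but both calls were lost within set A alone (adjusted p = 0.0559 and 0.0640). The Id1 call was also lost without the 8 h arrays (adjusted p = 0.232), without the 18 h arrays (0.235), without the 24 h array c (0.0530) and without the 3 h array a (0.0554). The Id2 call was lost without the 24 h array c too (0.0771), and without the 1 h (0.0536), 8 h (0.0777) or 24 h arrays (0.119), while the other Id2 probe set fell by 0.80 log2. Distal Id3 group means were highest at 8 h (11.10 log2) and 12 h (11.09), against 10.42 at 1 h and 10.17 at 3 h. The 5 distal arrays at 8 h had a lowest, median and highest Id3 value of 10.64, 11.20 and 11.47 log2. In a contrast added after this was seen, Id3 at 8 h exceeded the mean of 1 and 3 h by 0.81 log2 (adjusted p = 0.00649, 1.83% of all genes called), and the Id1 difference of 0.44 log2 was not called (adjusted p = 0.412). Inhba, Smad7 and Bmpr2 were not called in the distal time course, although a second, dim Inhba probe set was higher late.

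**Figure D4:**
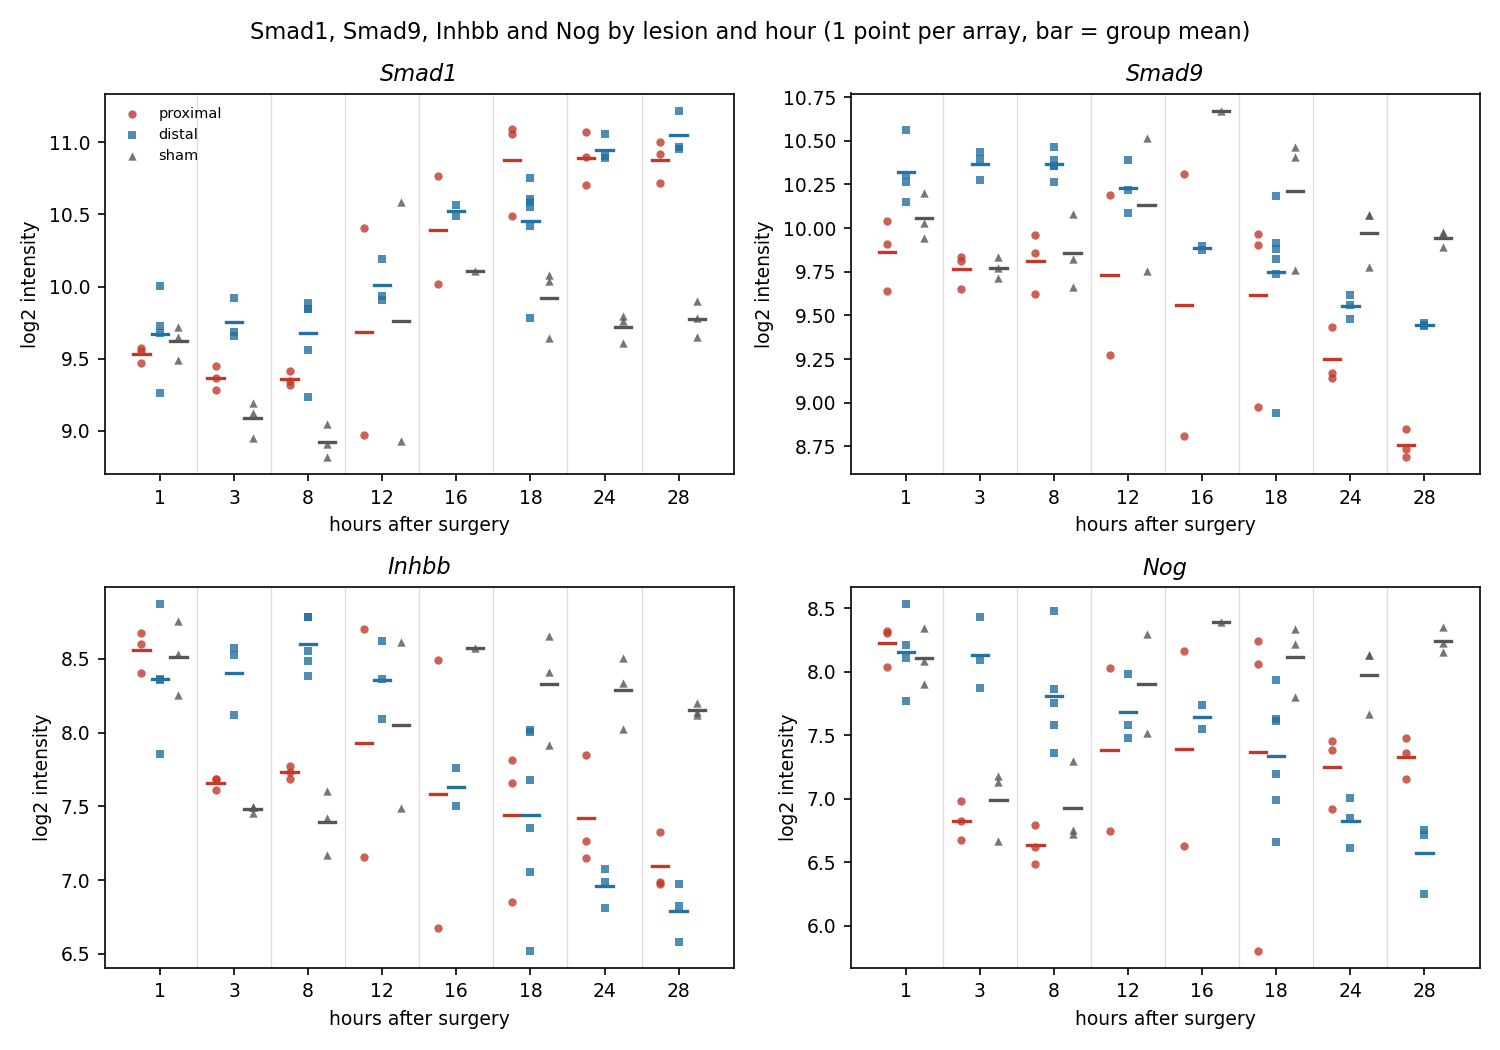
Log2 intensity of Smad1, Smad9, Inhbb and Nog by hour after surgery, 1 point per array, with bars for group means of proximal, distal and sham ganglia. From 18 h the proximal and most distal arrays lie above the sham arrays for Smad1 and, on average, below them for Smad9, Inhbb and Nog.

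Set against sham at the late hours, distal ganglia differed by 1.01 log2 for Smad1, -1.20 log2 for Nog, -1.19 log2 for Inhbb and -0.46 log2 for Smad9, where the proximal values against the same sham arrays were 1.08, -0.80, -0.94 and -0.84 log2. In the distal comparison 7 of the 10 genes and 61.8% of all genes were called, and lesion and technical set cannot be told apart in it. Also called in it were Bmpr2 (1.86 log2), Id2 (1.79 log2) and Smad7 (-0.25 log2). Their late proximal differences, -0.10, -0.32 and -0.01 log2, were not called. At the early hours distal ganglia already differed from sham ganglia, with 68.7% of all genes called. The members called then were all higher in distal ganglia: Id1 (0.75 log2), Nog (0.69), Inhbb (0.66), Smad1 (0.49) and Smad9 (0.46). The only hour and set with all 3 kinds of array was 18 h in set D, with 1 array each. There Smad1 was 9.78 log2 in the distal array, 10.49 in the proximal array and 9.64 in the sham array, so the distal array lay nearer the sham array. Inhbb was 6.52 log2 in the distal, 6.85 in the proximal and 7.91 in the sham array. In the same order Nog was 6.66, 5.81 and 7.80 log2, and Smad9 was 8.94, 8.98 and 9.76 log2. These single arrays allow no test.

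Genes whose pattern was most like that of the 4 called genes were sought among all tested genes, by Pearson correlation over the 43 proximal and sham arrays after the mean of each hour was subtracted. The arrays share hours, lesions and technical sets, so the coefficients describe these arrays only. For Smad1 the 3 closest were Jun (0.95), Ets2 (0.94) and Tubb6 (0.94), with late proximal minus sham differences of 1.05, 0.74 and 1.26 log2. For Smad9 they were Kcna4 (0.96), Tacc2 (0.93) and Btbd3 (0.92), and for Inhbb Tacc2 (0.96), Amigo2 (0.94) and Mtcl1 (0.94). For Nog they were Fbxl17l1 (0.91), Nol4l (0.90) and Gpr37 (0.86). The genes named for Smad9, Inhbb and Nog had late proximal minus sham differences between -0.82 and -0.40 log2. The choice by likeness over these same arrays favours differences of the members' sign, so these values are a description only.

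Of 69 other genes of the BMP, activin and TGF-beta pathways that were listed, 53 were tested. In late proximal ganglia 6 of them were called higher than in sham ganglia, none was called lower and 47 were not called. Of all genes, 5.35% were called higher and 4.36% lower. The median difference of the 53 was 0.02 log2, against -0.02 log2 over all genes. Each of the 6 had a different role. Mstn, which encodes the ligand myostatin, had a mean of 6.69 log2 in proximal ganglia and lay below the filter level in sham ganglia, a level at least 2.34-fold higher (adjusted p = 2.27e-08). Fst, whose product follistatin binds and blocks activins and myostatin, was 0.53 log2 higher (adjusted p = 1.95e-05). The receptor gene Acvr1 was 0.47 log2 higher (adjusted p = 0.00111) and Smad4, the shared partner of the other Smads, 0.38 log2 higher (adjusted p = 0.0171).

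The nuclear co-repressor gene Tgif1 was 0.59 log2 higher (adjusted p = 4.61e-05) and the TGF-beta-induced gene Klf10 0.45 log2 higher (adjusted p = 0.00606). In the early window none of the 53 was called. At 8 h 1.75% of all genes were called. The BMP antagonist gene Nbl1 (0.83 log2, adjusted p = 0.0141) and the ubiquitin ligase gene Smurf1 (0.65 log2, adjusted p = 0.0182) were higher in proximal ganglia then. Between late and early distal hours 10 of the 53 were higher and 4 lower, among them Fst (0.67 log2), Tgif1 (0.79 log2) and Smad5 (0.38 log2) higher and the BMP receptor gene Bmpr1a lower (-0.48 log2). Of all genes 15.4% were higher and 9.87% lower, so the 14 called pathway genes are close to the share over all genes.

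Markers of other cells moved in the same comparisons. In late proximal ganglia 7 of 12 macrophage markers were higher than in sham ganglia (median difference 0.50 log2), and the summed macrophage level ranged from 11.45 to 12.69 log2 in proximal arrays and from 10.89 to 11.85 log2 in sham arrays. The neutrophil gene S100a9 (1 of 2 neutrophil markers) and the fibroblast gene Postn (1 of 7) were higher too. None of 12 sensory neuron, 5 satellite glia, 7 Schwann cell and 7 endothelial markers was called there. Of all genes, 5.35% were called higher and 4.36% lower in that comparison. In the distal time course, late against early, 15.4% of all genes were called higher and 9.87% lower, and calls fell in most marker lists. There 4 of 12 sensory neuron markers were lower, and 4 of 12 macrophage markers were higher and 3 lower. Of pericyte and smooth muscle markers 4 of 6 were higher, and 4 of 7 fibroblast markers were lower. Also called were 2 of 5 satellite glia markers and 1 of 7 endothelial markers (higher), and 2 of 3 erythrocyte markers and 1 of 2 neutrophil markers (lower). Of 7 Schwann cell markers 1 was higher and 1 lower. The part of these cells in the differences of the 10 genes was not tested. In whole ganglia, fewer cells of a type and less RNA per cell cannot be told apart.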

How the data were processed

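The authors deposited 1 log2 intensity for each probe set and array, from Affymetrix rat arrays. Per the submitters' processing notes these came from RMA, a method that corrects for background, normalizes by quantiles and summarizes the probes of each set. No source used here gives its version. The table held 31099 probe sets. Control probe sets (57) were left out, 20826 probe sets carried 1 gene symbol in the platform annotation, 436 several and 9780 none, and only those with 1 were named. Each gene was read from its brightest probe set, and genes under the 25th percentile of mean intensity (5.46 log2) were not tested.

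With limma 3.58.1 in R 4.3.3 (files read with data.table, version 1.17.8), 1 mean for each of 24 lesion-by-hour groups was fitted to 72 arrays with 48 residual degrees of freedom, using moderated variances (empirical Bayes), a trend with mean intensity and Benjamini-Hochberg adjustment over 12276 genes. Tests were two-sided. Windows weight their hours equally, so a difference can depart slightly from that of the array means. Where a group had 1 array it was assumed to vary like the others. A fold is given as a lower bound where a group mean lay under the filter level. On simulated data for the late proximal comparison of 12276 genes, the fit recovered 98% of 1 log2 changes and 85% of 0.5 log2 changes. Of its calls 5.67% were false. The simulated noise was independent between arrays, so variation shared within technical sets was left out and these rates may not hold for the real arrays.

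The members, gene lists and tests were chosen with earlier results of these data known. Named were all 10 members, up to 4 called genes of each pathway role in the late proximal comparison, and the 3 genes most like each called member; the pathway genes named at 8 h and in the distal time course were chosen after their values were seen. The contrasts of distal 8 h and within set C, and the distal fit in set A alone, were added after seeing the data. Technical sets came from Ward clustering on probe sets under the filter. Letters were checked for pairing by the correlation of deviations from group means. It exceeded 0.1 for every pair at 1 h (0.696, 0.509 and 0.478) and 18 h (0.618, 0.714 and 0.799), and for no pair at 3 or 8 h. At 24 h (0.278, -0.314 and 0.575) and 28 h (0.297, 0.161 and 0.0872) it did so for some pairs only. Alternatives changed the filter, the normalization, the array weights, the blocks for technical set and letter, the arrays fitted and the probe set, and left out each hour and each array. The precision is limited by the number of arrays.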

Additional observations from a re-analysis of the deposited data

Results flagged for a closer look

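The distal 18 h array lettered do stood apart from the other 5 distal 18 h arrays in 5 of the 10 genes. It had 9.78 log2 for Smad1 (others 10.42 to 10.75), 8.94 for Smad9 (others 9.74 to 10.18), 7.82 for Id1 (others 9.07 to 9.55), 9.69 for Id3 (others 10.33 to 10.55) and 6.94 for Bmpr2 (others 9.10 to 10.34). These were the 5 flags in 30 tests by Dixon's ratio, each of 1 gene in 1 group of arrays. By chance the ratio flags about 1 in 20 tests, but tests of different genes used the same arrays. The 5 flags share 1 array, the only distal array in technical set D. The part of the set in these values was not tested.

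The proximal minus sham difference changed between the early and the late window for Smad1 (by 0.87 log2), Smad9 (by -0.76 log2) and Inhbb (by -1.12 log2), each by a test of the change itself.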

How the results depend on the processing

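The late proximal differences of Smad1 and Inhbb were called in the same direction in every alternative run, between 1.03 and 1.18 log2 for Smad1 and between -1.005 and -0.877 log2 for Inhbb, and also without each array in turn; Smad9 was too, except on its dim probe set. The count of the 10 genes called late was 3 to 5 over the alternatives and 4 without each array in turn. The count of all genes called late, 1192, was 1809 after another quantile normalization, 3429 with array weights (whose estimation stopped before it converged fully), 2336 and 2277 with the technical set as a fixed and a random block, 2504 with a replicate block by array letter, 755 without the 24 h arrays and 504 without the 28 h arrays. It ranged from 971 to 1371 without each array in turn. In the middle window the count of the 10 genes, 0, was 1 after another quantile normalization and with the set as a fixed or random block, and 7 with the replicate block, whose only pair at 16 h lies in different sets. In the early window it was 2 with the replicate block in place of 0. Late against early it was 5 in place of 3 with the fixed, the random and the replicate block. The fixed block added Nog (adjusted p = 0.00914) and Id3 (0.0426), in a fit that called 2544 of 12276 genes, against 1064 without a block. In the middle, early and late against early comparisons, all genes were not counted for the random and replicate blocks. For distal minus sham late the count of the 10 genes was 0 in place of 7 with the set as a random block. A fixed set block could not be estimated there and was not run. The distal late minus early count was 4 to 7 over the alternatives and 4 to 6 without each array in turn. The distal changes of Smad1, Smad9, Inhbb and Nog were called in each of them. The distal Id2 call was lost without the arrays lettered with o (adjusted p = 0.0545), without the 1 h (0.0536), 8 h (0.0777) or 24 h arrays (0.119), and that of Id3 was made without the 3 h arrays (0.0457). The second Inhba probe set reversed the distal change of Inhba, to 0.58 log2 (adjusted p = 0.00949). The cause of these shifts was not tested. Proximal and sham arrays of the same letter deviated together at 1 and 18 h, and at 18 h letter and set are partly the same. At 1 h the replicate block called 0 genes and changed no call, and at 18 h it called 3 of the 10 genes, Smad1, Smad9 and Inhbb.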
